A study of Mus musculus with 4 samples.

Results

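The 10 JmjC histone demethylase genes analysed here were followed across 4 RNA-Seq libraries of female mouse embryonic stem cells (ESCs): *Kdm2a*, *Kdm2b*, *Kdm3a*, *Kdm3b*, *Kdm4a*, *Kdm4b*, *Kdm4c*, *Kdm5a*, *Kdm5b* and *Kdm5c*. They were chosen by gene name, with earlier results of these data known, and all 10 have a value among the 9779 genes kept. The cells were of the LF2 line, which is of 129/J background and is grown on mouse embryonic fibroblast feeders. Growth off the feeders for 1 passage or more preceded treatment. The 4 conditions, each of 24 hr, were PBS+DMSO (vehicles only), PBS+GSK-J4 (GSK-J4 alone), AA+DMSO (AA alone) and AA+GSK-J4 (both agents). Where a gene's 4 levels are listed without names, they stand in that order. GSK-J4, given at 10 μM, is a cell-permeable inhibitor of JmjC demethylases that was developed against the H3K27 demethylases Utx and Jmjd3, and DMSO is its vehicle. AA is L-ascorbic acid, or vitamin C, given at 50 μg/ml, and PBS is its vehicle. Each condition has 1 library, so a difference between conditions has no replicate error and no test, and every value below describes these libraries. The unit is FPKM, in which fragments are scaled by exon length and by the mapped total, so levels can be ordered between genes. The files hold no read counts, so the counting error of a value cannot be given.

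JmjC demethylases remove methyl groups from lysines of histone tails with iron, oxygen and 2-oxoglutarate, and ascorbate helps to keep the iron in its active state. The Kdm2 proteins act mainly on H3K36me2 and recognise unmethylated CpG islands, the Kdm3 proteins act on H3K9me1 and H3K9me2, the Kdm4 proteins on H3K9me3 and H3K36me3, and the Kdm5 proteins on H3K4me3 and H3K4me2. In ESCs, Kdm3a and Kdm4c are known for removing H3K9 methylation at pluripotency genes, and Kdm2b for bringing a Polycomb complex to CpG islands. The H3K27 demethylase genes *Kdm6a* and *Kdm6b*, which encode Utx and Jmjd3, were not analysed here.

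The libraries carried the ESC identity of their label. Of 10 ESC markers, 9 had a value, from 23.5 to 867 FPKM, and none was at 0. Their sum was lower in the GSK-J4 libraries, at 1390 FPKM against 2317 without AA and 1258 against 2095 with AA. With GSK-J4, 9 of 9 were lower without AA and 8 of 9 with AA, with median log2 ratios of -0.55 and -0.62. Of all genes, 63.0% and 62.2% were lower. With libraries scaled to the same total, 8 and 6 of 9 markers were lower, beside 35.9% and 37.3% of all genes. *Utf1*, a chromatin factor of pluripotent cells, fell past 2-fold in both pairs, with ratios of -1.58 and -1.77, and *Tdgf1*, a Nodal co-receptor named after its values were seen, did so with AA, at -1.01, but not under that scaling. At the deposited scale most members were lower with GSK-J4 too. Scaled to the same total, 6 of the 9 members with a ratio were higher in both pairs, while most markers stayed lower. The part of these markers in the members' values was not tested. Of 9 markers of fibroblast feeders, only *Col1a1*, *Col1a2* and *Thy1* had a value, from 1.78 to 4.28 FPKM, and their sum was between 7.54 and 8.85 FPKM in the 4 libraries. Summed over all genes, FPKM was lower in the GSK-J4 libraries, at 275575 and 271205, than in the DMSO libraries, at 360621 and 342327. In bulk RNA, fewer cells of a type and less RNA per cell cannot be told apart. The scaling between libraries is not given in the sources used here, and the PBS pair and the AA pair come from separate tables that may have been normalised separately.

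Promoter windows of the reference genome, from 250 bases before to 50 bases after a transcription start, are shown for 3 members. They were chosen by their RNA levels over the conditions. *Kdm4c* and *Kdm3a* were each lower with GSK-J4 and with AA in both pairs at the deposited scale, and differed in size. *Kdm4c* was lowered more than *Kdm3a* with GSK-J4, at log2 ratios of -0.98 and -0.93 against -0.23 and -0.21. With AA, *Kdm3a* was lowered more, at -0.43 and -0.41 against -0.34 and -0.28. *Kdm4a* was lower with AA only in the DMSO pair. The sequences are from RefSeq on GRCm38.p6, read 5′ to 3′ on the gene's strand. Each is the window nearest to the start of the gene in the deposited tables. Capitals mark ACGTG and GCGTG on either strand, the core of the hypoxia response element bound by hypoxia-inducible factors (HIF). *Kdm4c* lies on the plus strand (chr4:74251629-74251928), *Kdm3a* on the minus strand (chr6:71632868-71633167) and *Kdm4a* on the minus strand (chr4:118179994-118180293).
Kdm4c: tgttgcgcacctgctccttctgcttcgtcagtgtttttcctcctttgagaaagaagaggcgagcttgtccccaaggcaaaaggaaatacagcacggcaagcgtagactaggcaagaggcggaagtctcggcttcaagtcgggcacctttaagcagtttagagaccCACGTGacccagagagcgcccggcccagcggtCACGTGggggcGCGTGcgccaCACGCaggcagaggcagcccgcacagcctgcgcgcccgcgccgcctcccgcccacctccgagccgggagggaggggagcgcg
Kdm3a: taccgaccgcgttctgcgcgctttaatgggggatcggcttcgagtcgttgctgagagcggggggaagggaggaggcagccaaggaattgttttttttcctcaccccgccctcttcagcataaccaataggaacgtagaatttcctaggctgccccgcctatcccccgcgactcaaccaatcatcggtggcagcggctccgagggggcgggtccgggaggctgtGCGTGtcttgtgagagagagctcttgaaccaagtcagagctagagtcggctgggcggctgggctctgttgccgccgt
Kdm4a: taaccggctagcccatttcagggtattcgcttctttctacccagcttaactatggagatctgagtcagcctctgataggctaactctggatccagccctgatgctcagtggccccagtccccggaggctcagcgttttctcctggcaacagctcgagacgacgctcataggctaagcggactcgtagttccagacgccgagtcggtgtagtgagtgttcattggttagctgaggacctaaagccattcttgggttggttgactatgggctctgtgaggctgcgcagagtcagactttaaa

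The *Kdm4c* window held 6 matches, 4 of ACGTG and 2 of GCGTG. The ACGTG matches come from 2 palindromes, each counted once on each strand, so they overlap. The *Kdm3a* window held 1 match, GCGTG on its own strand, and the *Kdm4a* window held none. Windows of 3 further members were searched, and *Kdm2b* held 1 match, *Kdm5b* held 2 and *Kdm5c* held none. Either motif was found in 43.8% of 32851 promoter windows of the same length, ACGTG in 19.6% and GCGTG in 32.4%. The 3 printed windows held 28, 24 and 13 CG dinucleotides, against a median of 7 over all windows. These matches describe letters and not binding.

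With vehicles only, the members differed widely in level. *Kdm5b*, an H3K4 demethylase of 51.4 FPKM in PBS+DMSO, was the highest member in each of the 4 libraries, and *Kdm5c* was second in each. *Kdm5c*, *Kdm4c*, *Kdm2b*, *Kdm3a* and *Kdm3b* lay between 18.8 and 26.2 FPKM, *Kdm4a* was at 10.1, and *Kdm5a* and *Kdm2a* were at 6.53 and 5.52. Without replicates it cannot be said which neighbours in this order differ. *Kdm4b*, an H3K9 demethylase, was listed at 0 with vehicles only, 0.00025 with GSK-J4 alone, 0.00014 with AA alone and 0.44 FPKM with both agents. Without reads, a failed isoform estimate cannot be told apart from a low level for this gene. It was the only member listed below 1 FPKM in every library, so no ratio was taken for it and the ratios below cover 9 members. The Kdm5 genes together held between 45.1% and 50.0% of the members' summed FPKM in the 4 libraries. The sum of all 10 members was 186.4 FPKM with vehicles only, 137.7 with GSK-J4 alone, 159.7 with AA alone and 130.7 with both agents.

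**Figure D1:**
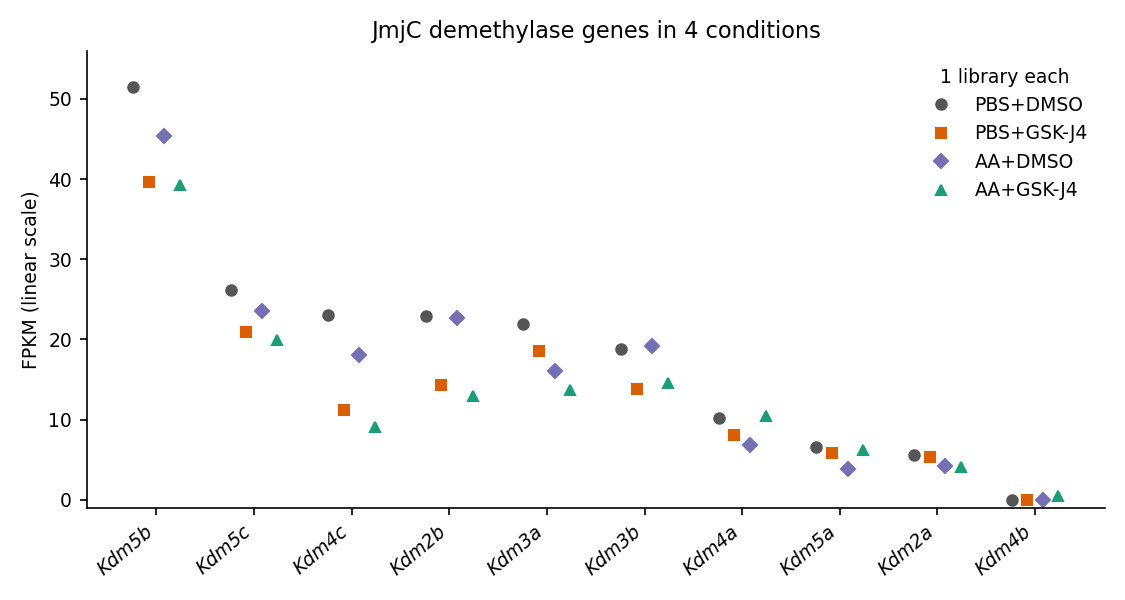
Level of each of the 10 genes in FPKM (linear axis), with 1 point for each library and genes ordered by PBS+DMSO. *Kdm5b* is highest in every library, *Kdm4b* is listed near 0 in every library, where a failed estimate and a low level cannot be told apart, and the GSK-J4 points of *Kdm4c* and *Kdm2b* lie well below their DMSO points.

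Whether an inhibitor of these enzymes alters the RNA of their own genes was asked first without AA. No member passed 2-fold in either direction, while 8.46% of the 9196 genes tested did. At 1.5-fold, 2 of 9 members passed, *Kdm4c* and *Kdm2b*, both lower, against 30.9% of all genes in either direction. All 9 members were lower with GSK-J4 at the deposited scale, as were 63.0% of all genes. Once the libraries were scaled to the same total, 3 of the 9 were lower and 6 higher, beside 35.9% of all genes lower. As deposited, the members' median log2((GSK-J4 FPKM + 1)/(DMSO FPKM + 1)) was -0.31, beside -0.17 for all genes. With AA, no member passed 2-fold either, against 7.51% of 9139 genes. The same 2 members passed 1.5-fold, against 27.9%. There 7 of 9 members were lower, against 62.2% of all genes, and the median log2 ratio was -0.21, beside -0.16 for all genes. With libraries scaled to the same total, 3 of the 9 were again lower and 6 higher, beside 37.3% of all genes lower. The direction of GSK-J4 held under each of 7 other settings for *Kdm2b*, *Kdm3b* and *Kdm4c* without AA, and for *Kdm2b*, *Kdm3b*, *Kdm4a*, *Kdm4c* and *Kdm5a* with AA. With libraries scaled to the same total, *Kdm3b* shrank to -0.050 without AA and -0.053 with AA, while *Kdm4c* was at -0.63 and -0.62. Of the 7 settings, other pseudocounts and the inclusion of genes with a failed estimate cannot turn the sign of a member. Only the other scalings and centrings can do so, here and in the sign counts below.

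**Figure D2:**
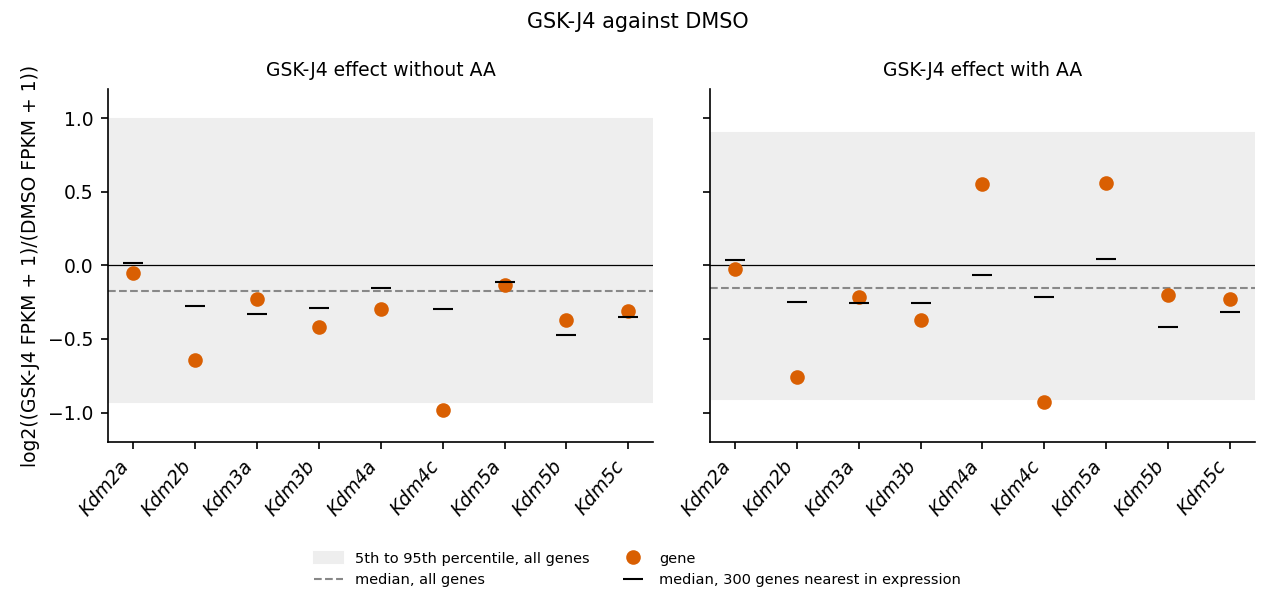
Log2 ratio of GSK-J4 over DMSO (FPKM + 1) for the 9 genes with a ratio, without AA (left) and with AA (right), with 1 library per condition. The grey band spans the 5th to 95th percentile of all genes, the dashed line is their median and the short bars are medians of the 300 genes nearest in expression. *Kdm4c* lies just below the band in both panels, at -0.98 and -0.93, while *Kdm4a* and *Kdm5a* lie above 0 only with AA.

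*Kdm4c*, an H3K9me3 and H3K36me3 demethylase on chromosome 4 (74251879 to 74405828 in the tables), had the lowest ratio of the members in both pairs. Its level was 23.1 FPKM with vehicles only, 11.2 with GSK-J4 alone, 18.1 with AA alone and 9.03 with both agents. The GSK-J4 libraries were thus below both DMSO libraries. Its log2 ratios were -0.98 without AA and -0.93 with AA, against medians of -0.29 and -0.21 for the 300 genes nearest in expression. Of all genes tested, 3.82% and 4.63% had a lower ratio. Without the pseudocount its ratios were -1.05 and -1.002, just past 2-fold. Its paralogue *Kdm4a* did not share this, as described below, and the Kdm4 genes summed to 33.2, 19.3, 24.9 and 20.0 FPKM.

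*Kdm2b*, the CpG island binding member on chromosome 5 (122870473 to 122989211), was next. Its 4 levels were 22.9, 14.3, 22.7 and 12.97 FPKM. Both GSK-J4 libraries were below both DMSO libraries, and the 2 DMSO libraries were nearly equal. The log2 ratios were -0.64 and -0.76, against -0.28 and -0.25 for genes of like expression. Its paralogue *Kdm2a*, at 5.52 and 5.29 FPKM without AA and 4.20 and 4.13 with AA, had ratios of -0.05 and -0.02, which turned positive under 3 of the 7 other settings.

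*Kdm2b* is the only member split by the authors into more than 1 coding sequence group, that is, a set of transcripts that share a coding sequence. Its 3 groups are listed as P7963, P7964 and P7965, and the files do not say which isoform each one is. P7963 was at 5.56, 3.09, 4.62 and 1.91 FPKM, P7964 at 7.42, 3.52, 6.80 and 3.91, and P7965 at 9.88, 7.70, 11.3 and 7.14. All 3 groups were lower with GSK-J4 in both pairs, but not equally. P7965 made up 43.2% of *Kdm2b* FPKM with vehicles only, 53.8% with GSK-J4 alone, 49.7% with AA alone and 55.1% with both agents. P7964 went from 32.4% to 24.6% without AA but was at 30.0% and 30.2% with AA, where P7963 went from 20.4% to 14.7%. The split rests on the authors' estimate of isoform levels, whose error is unknown.

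**Figure D3:**
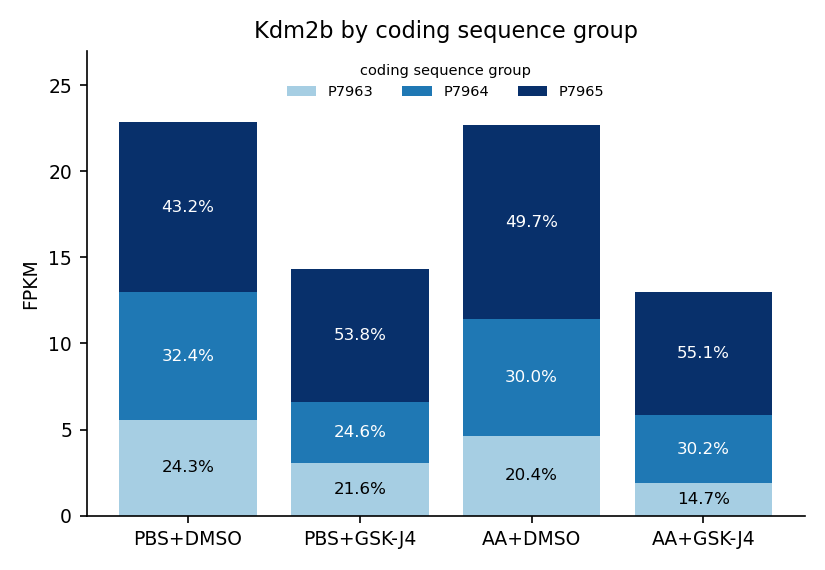
Stacked FPKM of the 3 *Kdm2b* coding sequence groups in the 4 libraries, with the share of each in percent. The bars of the GSK-J4 libraries are shorter, at 14.3 and 12.97 FPKM, and P7965 holds the highest share in every library.

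The Kdm3 genes, which act on H3K9me1 and H3K9me2, were closer to genes of like expression than *Kdm4c* and *Kdm2b* were. *Kdm3b* was at 18.8 and 13.8 FPKM without AA, and 19.1 and 14.6 with AA. The ratios were -0.42 and -0.37 on the log2 scale, below the medians of -0.29 and -0.26 for genes of like expression. The 2 DMSO libraries of *Kdm3b* lay above its 2 GSK-J4 libraries. *Kdm3a* was at 21.9 and 18.6 FPKM without AA and 16.03 and 13.7 with AA. Its GSK-J4 ratios were -0.23 and -0.21, beside -0.33 and -0.26 for genes of like expression, and they turned positive under 3 of the 7 other settings.

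Among the Kdm5 genes, which remove H3K4 methylation, *Kdm5b* was at 51.4 and 39.6 FPKM without AA and 45.4 and 39.3 with AA. *Kdm5c*, an X-linked member, was at 26.2 and 20.9 FPKM without AA and 23.5 and 19.9 with AA. Their log2 ratios for GSK-J4 were -0.37 and -0.20 for *Kdm5b* and -0.31 and -0.23 for *Kdm5c*. Genes of like expression had medians of -0.47 and -0.42 for *Kdm5b* and -0.35 and -0.32 for *Kdm5c*, so both members were less lowered than such genes. The sign of these ratios turned under 2 of the 7 other settings without AA and under 3 with AA.

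*Kdm4a* and *Kdm5a* differed between the pairs. *Kdm4a* was at 10.1 FPKM with vehicles only, 8.09 with GSK-J4 alone, 6.83 with AA alone and 10.5 with both agents. *Kdm5a*, an H3K4 demethylase first found as a partner of the retinoblastoma protein, was at 6.53, 5.85, 3.84 and 6.14 FPKM. For both genes AA+DMSO was the lowest library, and for *Kdm4a* the library with GSK-J4 alone was the next lowest and nearer to it than to the other two. Without AA the log2 ratios of GSK-J4 were -0.29 and -0.13, and the sign turned under 1 setting for *Kdm4a* and 3 for *Kdm5a*. With AA they were 0.55 and 0.56. The ratio with AA minus that without AA was 0.85 for *Kdm4a* and 0.70 for *Kdm5a*. These 2 of 9 members passed 1.5-fold in this difference, against 6.31% of 8972 genes in either direction. The other 7 members had differences between -0.12 and 0.16. With 1 library per condition the difference was not tested.

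AA was then compared with PBS, which sets values of the 2 tables side by side. In DMSO, no member passed 2-fold, against 1.30% of 8843 genes, and 1 of 9 passed 1.5-fold, *Kdm5a*, against 4.31%. At any size 8 of 9 members were lower with AA, against 62.4% of all genes. The median log2((AA FPKM + 1)/(PBS FPKM + 1)) of the members was -0.33, beside -0.05 for all genes. Under GSK-J4, no member passed 2-fold, against 1.11% of 9180 genes, or 1.5-fold, against 4.25%. There 6 of 9 were lower, against 55.4%, and the median was -0.07, beside -0.02. These comparisons use the same 4 libraries as those of GSK-J4.

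*Kdm5a* and *Kdm4a* had the lowest ratios of the members in DMSO, -0.64 and -0.51, and only 1.79% and 2.87% of genes were lower. Under GSK-J4 they were at 0.06 and 0.34. *Kdm3a*, which maps to chromosome 6 (71588986 to 71632956), was lower with AA in both pairs, with log2 ratios of -0.43 in DMSO and -0.41 under GSK-J4. Genes of like expression had medians of -0.06 and -0.02, and 4.15% and 5.27% of all genes were lower. *Kdm4c* was at -0.34 and -0.28, and *Kdm2a*, an H3K36 demethylase, at -0.33 and -0.30. These 3 genes were lower with AA in both pairs under each of the 7 other settings, although none passed 1.5-fold. *Kdm2b* was at -0.01 and -0.13, *Kdm3b* at 0.03 and 0.07, *Kdm5b* at -0.18 and -0.01, and *Kdm5c* at -0.15 and -0.07. Of these values, those of *Kdm2b* in DMSO and *Kdm5b* under GSK-J4 turned sign under 4 of the 7 other settings, which are all those that could turn it.

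**Figure D4:**
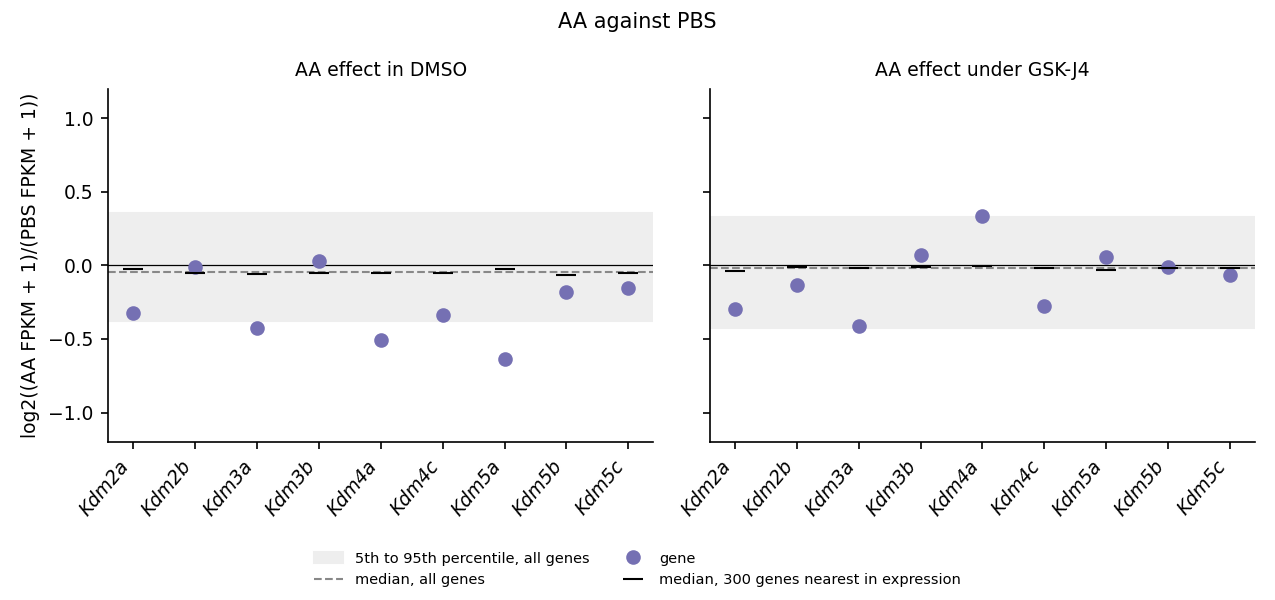
Log2 ratio of AA over PBS (FPKM + 1) for the 9 genes with a ratio, in DMSO (left) and under GSK-J4 (right), with the marks of the plot for GSK-J4. *Kdm3a*, *Kdm4a* and *Kdm5a* lie below the grey band of all genes in DMSO, and *Kdm4a* lies at its upper edge under GSK-J4.

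*Kdm3a* is a known target of HIF, so reference genes of HIF were read beside it. In DMSO, 10 of 10 such genes with a ratio were lower with AA, with a median log2 ratio of -0.62, and 2 fell past 2-fold (1 with libraries scaled to the same total). Under GSK-J4, 11 of 11 were lower, with a median of -0.60, and 3 fell past 2-fold. Of all genes, 62.4% were lower with AA in DMSO and 55.4% under GSK-J4, and 1.30% and 1.11% passed 2-fold in either direction. *Ldha*, lactate dehydrogenase of glycolysis, fell from 933 to 450 FPKM in DMSO and from 666 to 248 under GSK-J4. *Bnip3*, a mitophagy gene named here after its values were seen, fell from 46.4 to 19.7 and from 44.6 to 14.6. *Pgk1*, another glycolytic gene named after its values were seen, was at 1218 and 692 FPKM in DMSO and fell from 910 to 408 under GSK-J4. With GSK-J4 the HIF list had medians of -0.00 and -0.03, which became 0.38 and 0.27 with libraries scaled to the same total. The medians of all genes were -0.17 and -0.16 as deposited, and 0.17 and 0.15 under that scaling. *Vegfa*, the angiogenic growth factor, was the only gene of the HIF list past 2-fold, against 8.46% and 7.51% of all genes. Its levels were 3.79, 12.8, 3.59 and 12.3 FPKM, higher in both GSK-J4 libraries. The part of HIF in the values of *Kdm3a* was not tested.

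Enzymes related to the members were read for GSK-J4 in the same way. As deposited, 8.46% of all genes passed 2-fold without AA and 7.51% with AA, here and for the lists that follow. Of 12 other JmjC proteins, none passed 2-fold without AA and 1 did with AA. Their median log2 ratios were -0.11 and -0.48, beside -0.17 and -0.16 for all genes. With libraries scaled to the same total, the medians of these proteins were 0.19 and -0.23, and those of all genes 0.17 and 0.15. *Tyw5*, a JmjC hydroxylase that modifies a transfer RNA, was at 5.85 and 2.56 FPKM without AA, a log2 ratio of -0.94, and fell from 4.87 to 1.31 with AA, a log2 ratio of -1.35. *Kdm7a*, a demethylase of H3K9me2 and H3K27me2, had the highest mean of the 2 ratios, at 0.43 and 0.66. For AA in DMSO, 1 gene of this list passed 2-fold, against 1.30% of all genes. It was *Jmjd4*, named after its values were seen, which rose from 0.65 to 3.12 FPKM. Of the amine oxidase demethylases, which work without iron, *Kdm1a* was at -0.63 and -0.84 and *Kdm1b* at -0.07 and 0.39.

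Writers of the marks that the members remove were mostly lower with GSK-J4 at the deposited scale, at which 63.0% of all genes were lower without AA and 62.2% with AA. With libraries scaled to the same total, 35.9% and 37.3% of all genes were lower. Of 12 genes of H3K4 methyltransferase complexes, 11 were lower without AA and 10 with AA, with median log2 ratios of -0.57 and -0.47, and none passed 2-fold. Scaled to the same total, 9 of 12 were lower in both pairs. *Dpy30*, a shared subunit of these complexes, had the lowest mean ratio, at -0.88 and -0.98, and *Kmt2a*, a catalytic subunit, the highest, at 0.20 and 0.35. Of the H3K9 methyltransferase genes, 5 of 5 were lower without AA and 4 of 4 with AA, with medians of -0.50 and -0.60, and under that scaling 4 of 5 and 5 of 5 were lower and none passed 2-fold. *Ehmt2*, which encodes G9a, was at 36.8 and 18.03 FPKM without AA, a log2 ratio of -0.99, and fell from 35.9 to 16.8 with AA, a log2 ratio of -1.05. The H3K36 methyltransferase genes with a value were *Whsc1l1*, at -0.07 and 0.15, and *Setd2*, at -0.68 and 0.11.

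Partners of Kdm2b in the noncanonical Polycomb complex 1.1 were lower in 7 of 8 genes without AA and in 8 of 8 with AA, with median log2 ratios of -0.66 and -0.44. With libraries scaled to the same total, 6 of 8 were lower in both pairs and none passed 2-fold without AA. For this list and the next, the shares of all genes that were lower were 63.0% without AA and 62.2% with AA as deposited. Scaled to the same total they were 35.9% and 37.3%. *Usp7*, a deubiquitinase of this complex, fell from 81.0 to 35.9 FPKM without AA, a log2 ratio of -1.15, and was at 74.2 and 37.5 with AA, a ratio of -0.97. *Bcorl1*, named after its values were seen, passed 2-fold only with AA, at -1.21, and was no higher than 1.31 FPKM in any library. Genes that make or use 2-oxoglutarate or carry ascorbate were lower in 12 of 15 in both pairs at the deposited scale and in 11 of 15 scaled to the same total. Their medians were -0.58 and -0.46 as deposited, and none passed 2-fold. *Idh3a*, a subunit of mitochondrial isocitrate dehydrogenase, was the lowest of them by mean ratio, at -0.60 and -0.99, and *Slc23a2*, an ascorbate transporter, the highest, at 0.04 and 0.22.

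**Figure D5:**
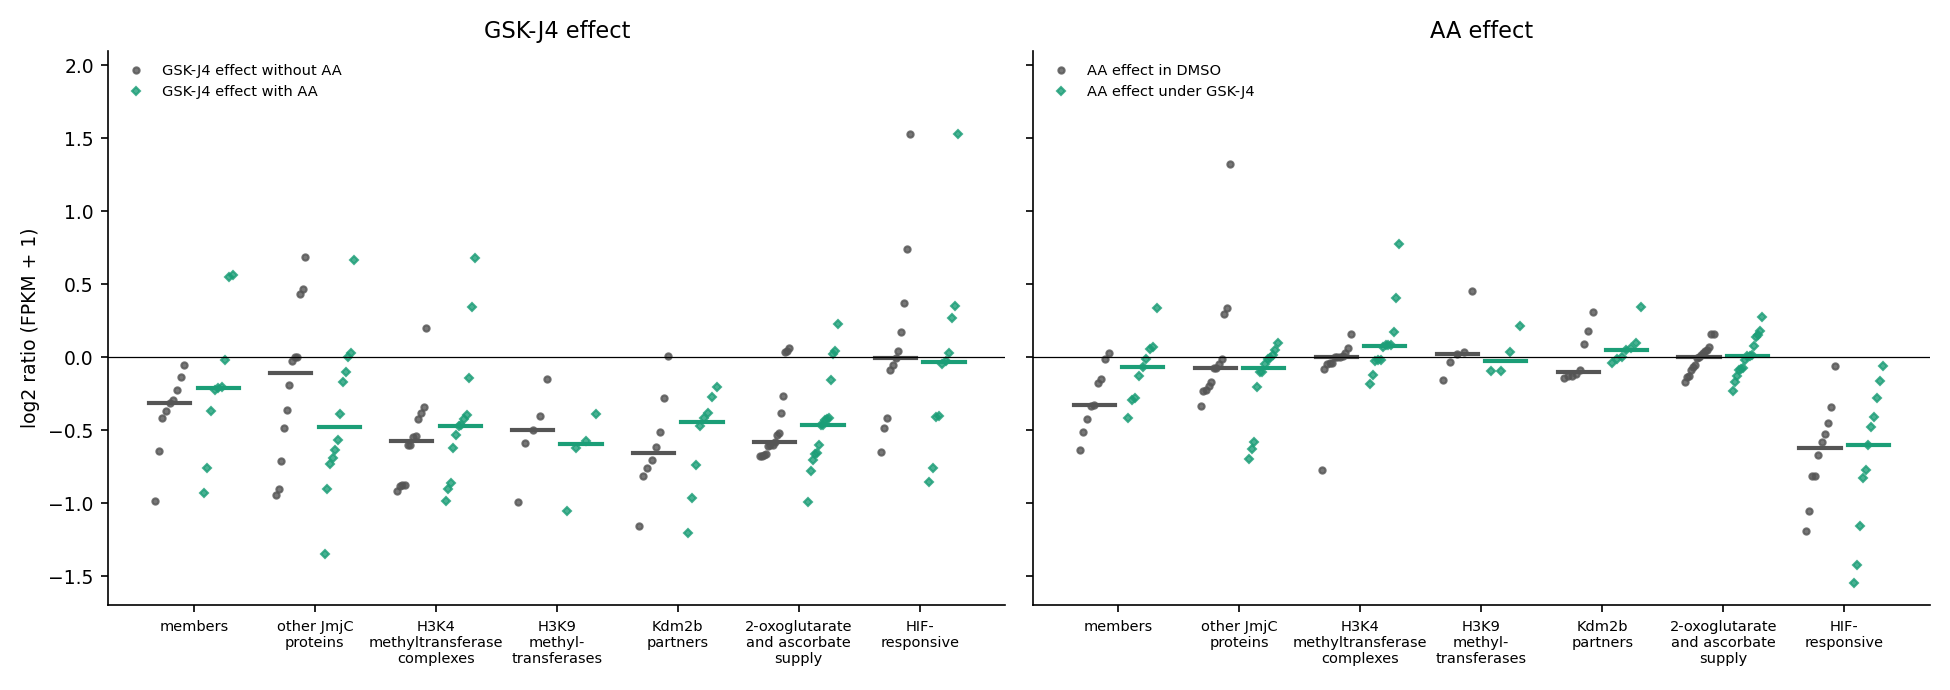
Log2 ratios (FPKM + 1) of GSK-J4 over DMSO (left) and AA over PBS (right) for the members and 6 lists of related genes, with 1 point for each gene and a bar at each median. With AA the HIF-responsive genes have medians of -0.62 and -0.60, while the members have medians of -0.33 and -0.07.

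Genes with patterns most like a member were sought among 5430 genes of at least 5 FPKM in every library, the member itself left out. The measure was the Euclidean distance between 3 log2 ratios to PBS+DMSO. *Ssbp1*, *Top1* and *Pcyt1b* were nearest to *Kdm4c*, at distances of 0.082, 0.11 and 0.12. *Skil*, *Gpc3* and *Notum* were nearest to *Kdm3a*, at 0.065, 0.066 and 0.13. *Kdm2b* had a very close neighbour in *Uqcrfs1*, a respiratory chain subunit, at 0.0094. *Kdm4a* and *Kdm5a* both had *Lmtk2* among their 3 nearest, at 0.12 and 0.17. *Lmtk2* had levels of 10.0, 8.69, 6.90 and 9.92 FPKM, so it too was lowest with AA alone. The nearest gene was *Ndn* for *Kdm2a*, *Ufl1* for *Kdm3b*, *Brcc3* for *Kdm5b* and *Cmas* for *Kdm5c*. A pattern here rests on 4 libraries.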

How the data were processed

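RNA was sequenced from 4 libraries, 1 per condition, and samples were grouped by their labels. The authors removed duplicates from single-end reads, aligned them with TopHat2 (mm10 per the processing notes) and made FPKM with Cufflinks2 through Maser. The annotation, versions, strand of counting and scaling between libraries are not given in the sources used here. The 2 deposited tables give FPKM for 11033 coding sequence groups under 9936 gene names. The columns are headed as log10 but hold linear FPKM. Their other columns hold the authors' fold changes, p-values and q-values, which were not used. Since duplicates were removed, values of abundant transcripts may be too low.

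FPKM was summed per gene, 157 genes with a failed estimate were left out, and log2 ratios used a pseudocount of 1 in genes of at least 1 FPKM in either library, which understates changes of weakly expressed genes. Thresholds were 2-fold and 1.5-fold. No test or p-value was possible. The members and lists were chosen with earlier results of these data known. All members are named. In each list of related genes, the largest rise and the largest fall in mean GSK-J4 ratio and genes past 2-fold in both pairs are named, and the 3 nearest genes were sought for each member. Alternatives were other pseudocounts, filters, scalings and thresholds, values per coding sequence group, and inclusion of failed genes. A ratio without pseudocount and lists scaled to the same total were added after seeing the data. Software was Python 3.11.15 with pandas 2.3.3, numpy 2.4.6 and matplotlib 3.10.9.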

Additional observations from a re-analysis of the deposited data

Results flagged for a closer look

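*Kdm4a* and *Kdm5a* had GSK-J4 ratios of opposite sign in the 2 pairs of libraries. The log2 ratio with AA minus that without AA was 0.85 for *Kdm4a* and 0.70 for *Kdm5a*, and the AA ratio under GSK-J4 minus that in DMSO is the same number by construction. With 1 library per condition this difference was not tested. In both genes AA+DMSO was the lowest library, at 6.83 and 3.84 FPKM. Of the 2 GSK-J4 pairs this library enters only the AA pair, and it also enters the AA ratio in DMSO. The PBS pair had ratios of -0.29 and -0.13, and the AA pair of 0.55 and 0.56. Of 8972 genes, 126 had a larger positive difference than *Kdm4a* and 180 than *Kdm5a*.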

How the results depend on the processing

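Other scalings moved the GSK-J4 medians most. The median of all genes shifted by 0.25 and 0.23 (log2) without and with AA when libraries were divided by their upper quartile, and by 0.35 and 0.31 when scaled to the same total. The median of the 9 members without AA, -0.31 as reported, was then -0.038 and 0.057, and it was -0.14 when centred on all genes and -0.070 when centred on genes of like expression. With AA, -0.21 as reported, it was 0.027 by upper quartile, 0.10 by total, -0.057 centred on all genes and 0.043 centred on genes of like expression. For AA in DMSO, -0.33 as reported, it was -0.19 with a pseudocount of 5 and -0.22 over 11 coding sequence groups. With a pseudocount of 0.1, 1 member, *Kdm4c*, passed 2-fold without AA, against 0 as reported. With a 1.5-fold threshold, 2 members passed for GSK-J4 without AA, 2 with AA and 1 for AA in DMSO. Of the values for counts and medians of members, 82 stayed within a tolerance of 0.1 (log2) for medians and 1.5 times for counts and 14 moved, and no alternative moved those for AA under GSK-J4. No paired analysis was possible because each condition has 1 library, and for the same reason no library could be left out. Depth is not given, so the counting error of the members cannot be stated.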

Other observations

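*Setd1a*, an H3K4 methyltransferase gene chosen after its values were seen, was at 4.83 FPKM with vehicles only, 2.18 with GSK-J4 alone, 2.41 with AA alone and 4.46 with both agents. GSK-J4 over DMSO gave a log2 ratio of -0.87 in the PBS pair and 0.68 in the AA pair. Like *Kdm4a* and *Kdm5a*, it was higher with both agents than with AA alone. The difference between its ratios was not tested.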
